A study of Mus musculus with 6 samples.

Results

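The immediate early and dissociation stress genes Fos, Fosb, Jun, Junb, Egr1, Ier2, Ier3, Atf3, Hspa1a and Dusp1 were measured in sorted motor neurons of the mouse cervical cord at embryonic stage e12.5. The members were all probes that the platform annotation assigns to these symbols, whether detected or not, which gave 13 probes for 10 genes out of 45281 probes and 19057 named genes on the array. The series holds 6 single-colour Illumina bead arrays, 3 of wild-type samples and 3 of samples labelled Hox5 mutant. All samples came from HB9::GFP embryos, in which motor neurons fluoresce, of a mixed C57BL/6, BALB/c and FVB background. Tissue was dissociated with papain and DNase before cell sorting in both groups. The mutant genotype is a floxed Hoxa5 allele (Hoxa5 fl/fl) with olig2CRE, which acts in the Olig2 lineage that includes motor neuron progenitors, together with Hoxc5-/-. Whether the wild-type embryos carried the Cre or the floxed allele, and how many embryos went into a sample, was not stated in the labels.

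Immediate early genes are switched on within minutes of a stimulus, without new protein synthesis, when MAP kinase and calcium signals activate factors already bound to their promoters, among them serum response factor and CREB. Their products include the Fos and Jun proteins, which pair through leucine zippers to form the AP-1 transcription factor, and the phosphatase Dusp1, which switches the kinases off again. Because tissue dissociation and sorting are themselves stimuli, these genes and heat shock genes are often read as a mark of handling in sorted or dissociated cells. In neurons they are also known as activity markers.

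Promoter windows, from 250 bases before the annotated start to 50 after it, were taken from RefSeq (GRCm38.p6) for 8 of the 10 members. Egr1 was left out of the member search, and no window was found for Ier2. The 4 shown belong to Fos, Dusp1, Jun and Hspa1a. A link between these sequences and the levels given below was not tested. They are written 5′ to 3′ along the gene. Capitals mark matches to TGACGT, the core of the cyclic AMP response element that CREB recognises, or to GAANNTTC, the core of a heat shock element, on either strand.
Fos chr12:85473640-85473939 (+ strand): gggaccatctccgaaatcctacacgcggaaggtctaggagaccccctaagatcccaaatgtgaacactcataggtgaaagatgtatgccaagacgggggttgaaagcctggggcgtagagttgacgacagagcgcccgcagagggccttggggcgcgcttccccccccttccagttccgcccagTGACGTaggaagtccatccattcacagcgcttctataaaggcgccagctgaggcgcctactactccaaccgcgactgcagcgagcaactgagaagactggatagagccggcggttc
Dusp1 chr17:26508423-26508722 (- strand): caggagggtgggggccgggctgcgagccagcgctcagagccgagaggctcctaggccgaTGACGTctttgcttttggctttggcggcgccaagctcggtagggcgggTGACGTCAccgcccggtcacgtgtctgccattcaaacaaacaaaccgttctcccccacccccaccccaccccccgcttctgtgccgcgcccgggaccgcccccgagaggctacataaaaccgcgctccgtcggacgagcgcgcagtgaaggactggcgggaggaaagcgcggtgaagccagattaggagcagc
Jun chr4:95052173-95052472 (- strand): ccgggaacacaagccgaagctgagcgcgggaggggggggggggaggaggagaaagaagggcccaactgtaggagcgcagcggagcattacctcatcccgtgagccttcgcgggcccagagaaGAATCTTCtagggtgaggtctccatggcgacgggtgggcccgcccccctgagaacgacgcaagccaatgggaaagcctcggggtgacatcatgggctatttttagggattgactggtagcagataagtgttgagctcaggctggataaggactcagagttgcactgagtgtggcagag
Hspa1a chr17:34972107-34972406 (- strand): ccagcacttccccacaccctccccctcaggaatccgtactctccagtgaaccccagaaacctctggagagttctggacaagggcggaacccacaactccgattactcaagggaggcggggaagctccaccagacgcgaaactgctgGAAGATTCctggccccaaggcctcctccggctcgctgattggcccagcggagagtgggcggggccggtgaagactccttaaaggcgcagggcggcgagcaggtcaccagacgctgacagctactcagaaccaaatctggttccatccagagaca

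TGACGT was present in the windows of Fos, Dusp1 and Atf3, 3 of 8 member windows, and in 7.51% of the 32841 windows of the same length in the table. The Fos match began at position −66, counted from the start site. Dusp1 held a match that began at position −191 and a TGACGTCA palindrome that began at position −143, which counts once on each strand. GAANNTTC was present in the windows of Hspa1a and Jun, 2 of 8, and in 7.86% of all windows. The AP-1 site TGANTCA, found in 7.81% of all windows, and the CArG box of serum response factor, found in 1.63%, had no match in the 8 member windows. These matches describe the letters in the windows and show no binding. Sequence further upstream and the window of Egr1 were not searched, so a site there would be missed.

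Before the members, the arrays themselves were checked. Hoxa5 was measured at log2 intensities of 14.03, 13.99 and 13.94 on wild-type replicates 1, 2 and 3 and at 13.15, 13.81 and 13.67 on those labelled mutant. Hoxc5 was at 6.47, 6.59 and 6.68 on the wild-type arrays and at 6.58, 7.65 and 7.71 on the others. Both were detected on all 6 arrays. The probes' place relative to the deletions was not stated in the labels, so these values do not check the genotype, and the group is named below by its label. Between 19307 and 20307 probes per array were detected, at a detection p under 0.05, and precision is limited by the small number of arrays. The number of detected probes gave a two-sided exact permutation p of 1 between the groups, and median intensity a p of 0.1, the smallest that 3 against 3 allows.

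Motor neuron markers were present, but 1 array stood apart. All 9 motor neuron markers, among them Isl1 and Chat, had a kept probe, and so did 8 interneuron markers, among them Lhx5 and Gad1, at summed intensities of 27551 to 33473 on the wild-type arrays. Mutant replicate 1 was the highest array for 6 of 8 blood probes, 4 of 4 endothelium probes and 9 of 9 mesenchyme probes. Over all tested probes it was the highest for 23.4%. The summed blood intensity ran from 2031 to 14916 on the wild-type arrays and from 3248 to 98946 on those labelled mutant, where the upper value is that of replicate 1. For endothelium the ranges were 263 to 524 and 296 to 3944, and for mesenchyme 2093 to 4511 and 1686 to 22174. Mutant replicate 1 was also the lowest array for 6 of 12 motor neuron probes and 14 of 14 interneuron probes, against 36.9% of all tested probes. Wild-type replicate 1 was second for blood, with a median of 1.86 above the wild-type mean on the log2 scale. By gene, mutant replicate 1 detected and was highest for 9 of 10 endothelium markers, all but Tie1, and for 6 of 7 macrophage and microglia markers, all but Ptprc. C1qb, a complement gene of macrophages and the brightest of these markers there, was at 7.17 and between 4.31 and 5.32 on the other 5 arrays. The other macrophage and microglia markers detected on mutant replicate 1 ran from 5.45 (C1qa) to 6.26 (Aif1). Only 1 gene of that list, Cx3cr1, had a kept probe. Tie1 and Ptprc were detected on no array. Of 8 tested neural progenitor probes 6 were highest there, with a summed intensity of 8480 against 2734 to 5441 on the other 5 arrays, where wild-type replicate 1 held the upper value. Every tested member is therefore given with and without mutant replicate 1. In RNA from many cells, fewer cells of a type and less RNA per cell cannot be told apart.

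Of the 13 member probes, 9 were detected on at least 3 of the 6 arrays, the condition for being tested, and they stand for 8 of the 10 genes. Across the array 43.6% of probes met that condition. The 9 probes comprise 1 each for Fos, Fosb, Jun, Egr1, Ier3, Dusp1 and Hspa1a and both for Junb. The single probes of Atf3 and Ier2 and the other 2 probes of Hspa1a did not meet it.

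**Figure D1:**
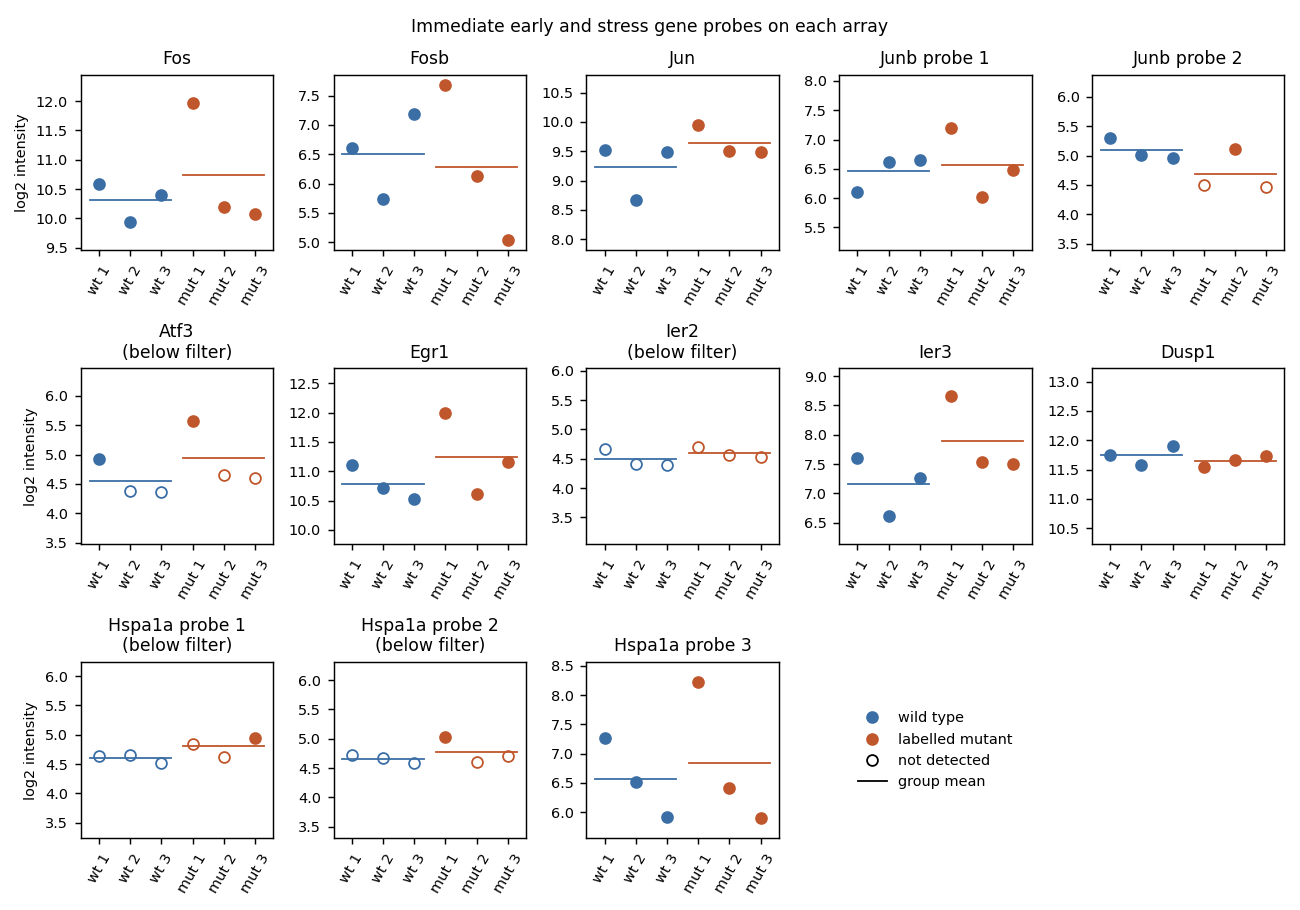
Normalized log2 intensity (vertical axis, a span of 3 units in every panel) of each of the 13 member probes on the 6 arrays (horizontal axis), with wild-type arrays in blue, arrays labelled mutant in orange, open circles where the probe was not detected and lines at the group means. Mutant replicate 1 is the highest point for Fos, Fosb, Jun, Egr1, Ier3 and the brightest Junb and Hspa1a probes, whereas the 6 Dusp1 points lie between 11.55 and 11.90.

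The groups were compared to ask whether these genes differed with genotype, and no member passed the test. With limma, 0 of 9 member probes had a Benjamini-Hochberg adjusted p under 0.05, as had 0 of all 19735 probes tested (0%). At an unadjusted p under 0.05 there were 0 of the 9 members, against 1.9% of all probes. The groups overlapped for all 9 members, whereas they did not overlap for 5.93% of all probes, 2.63% higher and 3.29% lower on the mutant-labelled arrays. The mean was higher on the arrays labelled mutant for 6 of 9 member probes, against 45.6% of all probes, and the median difference of the members was 0.28 on the log2 scale, against −0.02 over all probes. Without mutant replicate 1 the count fell to 3 of 9, against 51.1% of all probes, and the median difference was −0.17, against 0.00 over all probes. In that comparison 0 of 9 members had an unadjusted p under 0.05, against 2.41% of all probes, and 0 of 19735 probes passed.

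Among the AP-1 subunits, Fos had the widest separation of a single array. Fos, the inducible partner of Jun, was at deposited intensities of 1790.4, 912.8 and 1313.8 on wild-type replicates 1, 2 and 3, and at 3930.8, 1282.3 and 1319.9 on mutant replicates 1, 2 and 3. After normalization these became log2 values of 10.58, 9.94 and 10.40 in the wild type and 11.96, 10.19 and 10.08 in the arrays labelled mutant. Mutant replicate 1 lay above all wild-type arrays, and mutant replicates 2 and 3 lay inside their range. The difference between group means was 0.44 (95% interval −0.726 to 1.60, limma adjusted p 0.998). It turned to −0.17 (−0.690 to 0.344) without mutant replicate 1. On that array Fos was 3.30-fold above the mean of the other 5, a deviation larger than that of 97.9% of tested probes. Over the other 5 arrays its range was 0.64 on the log2 scale, wider than for 65.2% of tested probes.

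Fosb, a close relative of Fos that also pairs with Jun proteins, varied most among the members. Its log2 values were 6.60, 5.74 and 7.19 on the wild-type arrays and 7.69, 6.13 and 5.03 on those labelled mutant. The highest and the lowest of the 6 values both belonged to arrays labelled mutant, replicates 1 and 3. The difference was −0.23 (95% interval −1.79 to 1.34, limma adjusted p 0.998), and −0.93 (−2.03 to 0.175) without mutant replicate 1. It turned positive without mutant replicate 3, at 0.40, and without wild-type replicate 3, at 0.11. The SD of the wild-type arrays alone, 0.728 (n = 3), was larger than that of 98.4% of tested probes, so the spread of Fosb did not rest on mutant replicate 1.

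Jun, the partner that can form AP-1 with itself or with Fos proteins, was at 9.52, 8.68 and 9.49 on the wild-type arrays and at 9.94, 9.50 and 9.48 on those labelled mutant. The low value here was wild-type replicate 2, and the other 5 arrays lay within 9.48 to 9.94. The difference was 0.41 (95% interval −0.225 to 1.05, limma adjusted p 0.998). It was 0.26 without mutant replicate 1 and 0.14 without wild-type replicate 2.

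Junb, a Jun relative that often opposes Jun in the control of growth, had 2 tested probes, with differences of opposite sign and neither past the test. The probe assigned to the transcript NM_008416 was at 6.11, 6.61 and 6.66 on the wild-type arrays and at 7.20, 6.01 and 6.47 on those labelled mutant. Its highest and lowest values were again both on arrays labelled mutant, here replicates 1 and 2. The difference was 0.10 (95% interval −0.647 to 0.856), and it became −0.22 without mutant replicate 1 and −0.07 without wild-type replicate 1. The probe assigned to the cDNA AK044253 was at 5.31, 5.02 and 4.96 against 4.50, 5.11 and 4.46. Each wild-type array detected it, and of the others mutant replicate 2 alone, so its difference of −0.41 (−0.928 to 0.115) is of uncertain size. The limma adjusted p was 0.998 for both probes.

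Atf3, a repressor of the same leucine zipper class that is induced by injury and stress, was near background. Its log2 values were 4.93, 4.37 and 4.36 on the wild-type arrays and 5.57, 4.66 and 4.60 on those labelled mutant. It was detected on the arrays numbered 1 of both groups and on no other. Because it missed the detection condition it was tested only when no filter was applied, where the limma adjusted p was 0.989.

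Egr1, a zinc finger transcription factor induced by growth factors and neuronal activity, was at 11.10, 10.72 and 10.52 on the wild-type arrays and at 11.99, 10.60 and 11.15 on those labelled mutant. Mutant replicates 1 and 3 lay above the wild-type arrays, replicate 3 by a margin under 0.1, and replicate 2 lay inside their range. The difference was 0.47 (95% interval −0.362 to 1.30, limma adjusted p 0.998), and 0.10 without mutant replicate 1. On that array Egr1 was 2.25-fold above the mean of the other 5.

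Of the immediate early response genes, Ier3, which protects cells from death signals and is also known as IEX-1, had the smallest unadjusted p of the 9 tested probes. Its log2 values were 7.61, 6.61 and 7.25 on the wild-type arrays and 8.65, 7.54 and 7.49 on those labelled mutant. The groups overlapped because wild-type replicate 1 exceeded mutant replicates 2 and 3. The difference was 0.74 (95% interval −0.160 to 1.64, unadjusted limma p 0.0933, adjusted p 0.998). It was positive with every array left out in turn, from 0.36 without mutant replicate 1 to 0.96 without wild-type replicate 1. Ier2, a small nuclear protein gene that is usually induced together with Fos, was detected on 0 of the 6 arrays, at values from 4.39 to 4.69, so nothing can be said of its level here beyond that its probe was not above background.

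Dusp1, the nuclear phosphatase that inactivates MAP kinases and is itself an immediate early gene, had nearly the same level on all 6 arrays. Its log2 values were 11.74, 11.58 and 11.90 on the wild-type arrays and 11.55, 11.67 and 11.73 on those labelled mutant. All 6 lay within 0.35 of each other, a range narrower than that of most tested probes, since 11.3% of them had a smaller one. The difference was −0.09 (95% interval −0.464 to 0.276, limma adjusted p 0.998), and −0.05 without mutant replicate 1. Mutant replicate 1, the highest array for Fos and Egr1, was the lowest for Dusp1, 0.17 below the mean of the other 5 on the log2 scale, and a lower value was seen there for 43.3% of tested probes. The same sign was found under the 6 other ways of scaling, from −0.13 with cyclic loess to −0.30 with median scaling.

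Hspa1a encodes the inducible form of the chaperone Hsp70, a target of heat shock factor, and its 3 probes differed in whether they detected anything. The bright probe was at 7.27, 6.52 and 5.92 on the wild-type arrays and at 8.22, 6.42 and 5.90 on those labelled mutant. Mutant replicate 1 was the highest array, and wild-type replicate 3 and mutant replicate 3 were the lowest and close together. The difference was 0.28 (95% interval −1.17 to 1.72, limma adjusted p 0.998), and it turned to −0.41 without mutant replicate 1 and to −0.05 without wild-type replicate 3. On mutant replicate 1 this probe was 3.52-fold above the mean of the other 5, beyond 98.1% of tested probes, and its wild-type SD of 0.678 (n = 3) was also larger than that of 98.1% of them. The other 2 probes were detected on no wild-type array and on 1 array labelled mutant each, at values from 4.52 to 5.03. No fold is given for either, because its mean on the arrays labelled mutant did not exceed the floor set by the dimmest detected probes. Hspa1a and its neighbour Hspa1b are near copies of each other, and their promoter windows differ at 4 of 300 positions. The promoter windows do not tell which gene a probe reads. No probe sequences were given, so which of these genes the bright probe reads is uncertain. The brighter of the 2 Hspa1b probes was detected on 3 of the 6 arrays and ran from 4.68 to 5.18, with mutant replicate 1 at 4.99.

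**Figure D2:**
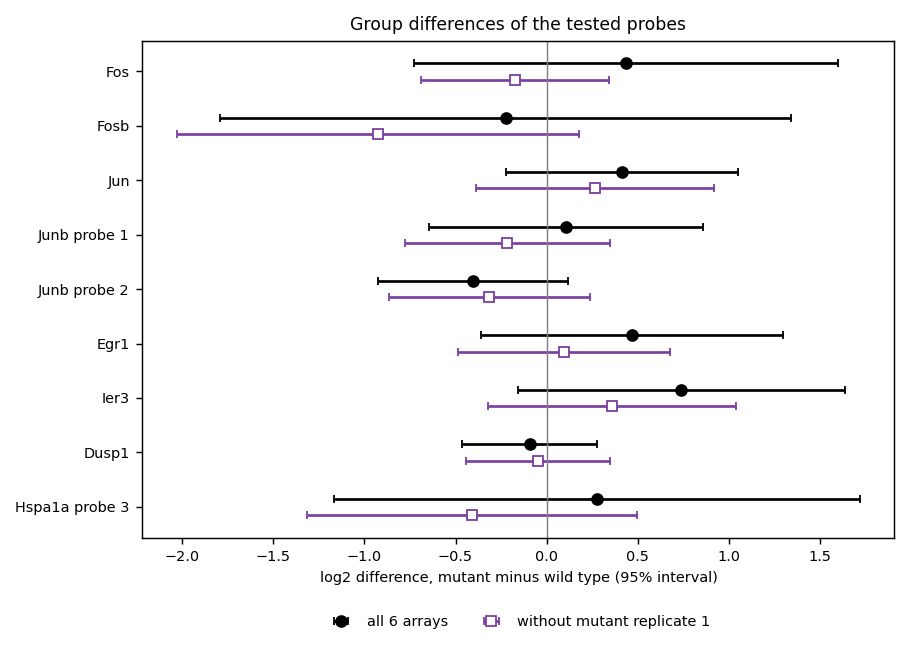
Difference in log2 intensity, mutant minus wild type (horizontal axis), for the 9 tested member probes (vertical axis), with 95% intervals from limma over all 6 arrays (filled circles) and without mutant replicate 1 (open squares). Each plotted interval spans 0, and the points of Fos, Hspa1a and the brighter Junb probe move from above to below 0 when that array is left out.

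The highest values of the members were concentrated on 1 array. For 7 of 9 member probes the highest array was mutant replicate 1, against 23.4% of all tested probes, and the lowest for 1 of 9, against 36.9%. The median deviation from the mean of the other 5 arrays was 1.17 for the members and −0.09 for all tested probes on the log2 scale. Mutant replicate 1 lay above the wild-type range for 7 and below it for 2 of the 9 members, whereas mutant replicate 2 lay inside it for 8 and mutant replicate 3 for 5. Over all tested probes, mutant replicates 1, 2 and 3 lay inside the wild-type range for 31.6%, 57.3% and 56.7%, and replicate 1 lay above it for 27.4%. The count of 7 was found under each of the 6 other ways of scaling. On the same array the blood, endothelium, mesenchyme and macrophage markers were high, as given above, and the neural progenitor probes had a median deviation of 1.36 from the mean of the other 5 arrays. Their part in the values of the members was not tested.

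**Figure D3:**
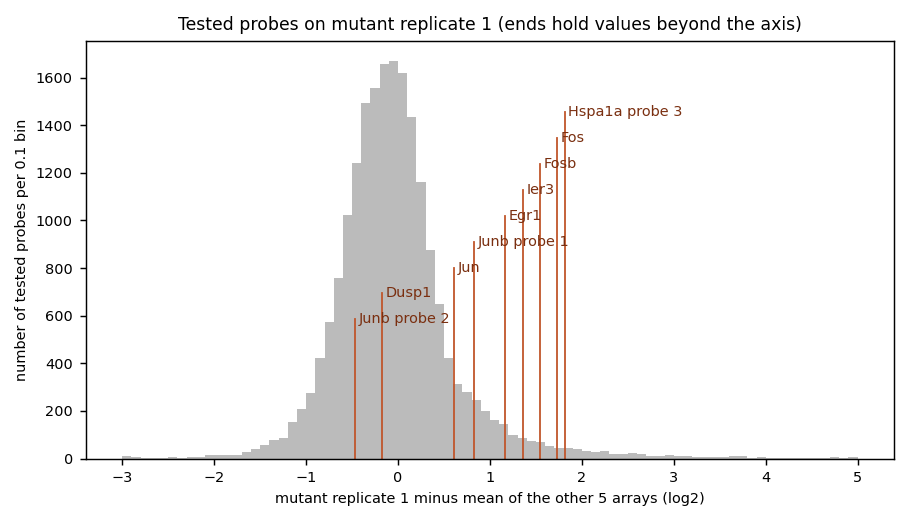
Number of tested probes (vertical axis, bins of 0.1) by their log2 level on mutant replicate 1 minus the mean of the other 5 arrays (horizontal axis), with the 9 tested member probes marked by vertical lines whose heights serve only to separate the labels. Most probes lie near 0 (median −0.09), while Hspa1a stands at 1.81, Fos at 1.72 and Fosb at 1.55, and Dusp1 lies at −0.17 within the bulk.

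Variation among arrays was also seen apart from that array. Over the other 5 arrays the median range of the member probes was 0.85 on the log2 scale, against 0.52 over all tested probes. Among the wild-type arrays alone the median SD was 0.33 for the members and 0.21 for all tested probes. Wild-type replicate 2 was the lowest array for Fos, Jun and Ier3, 3 of 9 member probes, against 18.1% of all tested probes. These medians describe probes that passed a detection condition and carry no test.

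Other genes of the same response, listed from knowledge of the pathway, gave no call. In the list of other immediate early genes, 32 of 43 had a tested probe, and of their 42 probes 19 were higher and 23 lower in the mutant-labelled group, with 0 past an adjusted p of 0.05 in either direction and 1 at an unadjusted p under 0.05. The median difference was −0.04. The 3 genes with the smallest unadjusted p were the growth arrest gene Gadd45a at −0.57, the circadian repressor gene Bhlhe40 at 0.53 and the pseudokinase gene Trib1 at −0.50, each with a limma adjusted p of 0.998. Gadd45a was lower on every array labelled mutant, at 8.03, 8.21 and 8.37, than on the wild-type arrays, at 8.73, 9.11 and 8.48, and its other probe differed by −0.30. Ier5, Nr4a1, Btg2, Egr4, Ptgs2 and Tiparp were detected on no array.

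On mutant replicate 1 these other immediate early genes stood far above the other arrays more often than far below. The genes named in this paragraph were chosen after their values were seen. Of the 42 probes 11 stood more than 1 above the mean of the other 5 arrays on the log2 scale, against 5.7% of all tested probes, and 1 stood more than 1 below, against 3.78%. Cebpb, a leucine zipper factor of inflammation, was at 8.31 on that array and between 5.59 and 6.46 on the other 5. Csrnp1 was at 7.46 there and between 5.17 and 5.88 elsewhere. Egr2, a relative of Egr1, was at 7.31 against 5.10 to 6.12, and Zfp36, which destabilises inflammatory mRNAs, at 8.37 against 6.37 to 7.46. Nr4a2, a nuclear receptor of neurons, was at 7.58 on that array and between 8.67 and 8.91 elsewhere. Homer1, a scaffold of excitatory synapses, lay less than 1 below the mean of the other 5 arrays. Its probes were at 8.50 against 9.10 to 9.43 and at 9.60 against 9.93 to 10.14. Over the whole list that array was the highest for 17 and the lowest for 13 of the 42 probes, against 23.4% and 36.9% of all tested probes.

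Among AP-1 partners 6 of 11 genes were tested, and 3 of 10 probes were higher and 7 lower (median −0.07), with 0 past the threshold and 1 at an unadjusted p under 0.05. That probe was of Atf4, the factor of the integrated stress response, at 9.13, 6.42 and 9.36 on the wild-type arrays and 5.43, 5.91 and 6.71 on those labelled mutant. Its groups overlapped through wild-type replicate 2, the difference was −2.29 (95% interval −4.09 to −0.487, limma adjusted p 0.998), and another Atf4 probe differed by 0.08. Jund, the constitutive member of the Jun family, differed by −0.36 and by −0.26 without mutant replicate 1. Atf2 differed by −0.32 and by −0.15 without mutant replicate 1, and its other 2 probes were at −0.14 and 0.09.

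Of the heat shock list 16 of 21 genes were tested, and 7 of 22 probes were higher and 15 lower (median −0.10), with 0 past the threshold and 0 at an unadjusted p under 0.05. Hspa4 differed by −0.57, the Hsp110 gene Hsph1 by 0.30 and the co-chaperone gene Dnaja1 by −0.38. For Hsph1 the groups did not overlap, at 10.93, 10.65 and 10.90 on the wild-type arrays and 11.28, 11.12 and 10.97 on those labelled mutant (limma adjusted p 0.998). The heat shock probes as a list stood at a median of −0.21 on mutant replicate 1 relative to the wild-type mean, beside 1.18 for the member probes. Bag3, a co-chaperone of Hsp70 named after its values were seen, was at 9.06 on that array and between 6.29 and 6.86 on the others.

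The upstream kinases and transcription factors gave 6 of 27 probes higher and 21 lower (14 of 23 genes, median −0.08), with 0 past the threshold and 1 at an unadjusted p under 0.05. That probe was of Srf, which encodes serum response factor, at a difference of −0.55. It was detected on each wild-type array but on 1 array labelled mutant, so its size is uncertain, and its other probe differed by −0.04. Creb1 differed by −0.62, by −0.30 without mutant replicate 1 and by −0.0053 without both arrays numbered 1, and its other probe by −0.32. Crem differed by −0.33, but its other 3 probes were at 0.07, 0.11 and 0.16. Without mutant replicate 1, 14 of the 27 probes were higher and the median was 0.00. Among inhibitors of MAP kinase signalling, to which Dusp1 belongs, 9 of 19 probes were higher and 10 lower (10 of 14 genes, median −0.02), with 0 past the threshold and 0 at an unadjusted p under 0.05. Dusp10 differed by 0.26, with its other probe at 0.09, and Dusp8 by −0.22, with its other probe at 0.02 and −0.063 without mutant replicate 1. Dusp4 differed by −0.26 and by 0.20 without mutant replicate 1, and its other 3 probes were at −0.20, −0.14 and −0.07.

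**Figure D4:**
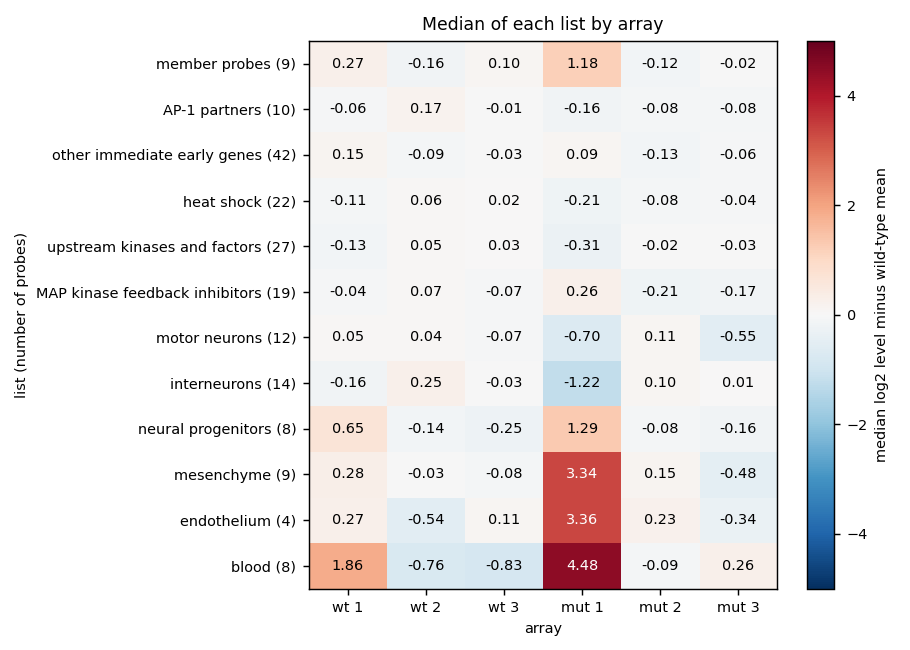
Median log2 level of each list of probes (rows, with the number of tested probes) relative to the wild-type mean on each of the 6 arrays (columns), with red above and blue below 0. On mutant replicate 1 the member probes stand at 1.18 and mesenchyme, endothelium and blood at 3.34, 3.36 and 4.48. Motor neuron and interneuron markers stand there at −0.70 and −1.22. On mutant replicates 2 and 3 the members stand at −0.12 and −0.02, and motor neuron markers at 0.11 and −0.55.

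The genes whose pattern over the 6 arrays was most like that of Fos were Fermt2, Gng12, Pttg1ip, Igfbp3 and Mrpl27, with Pearson r from 0.995 to 0.997 over 6 arrays. Fermt2 encodes an integrin activator, Gng12 a G protein subunit and Igfbp3 a binding protein of insulin-like growth factors. Of 10435 genes compared, 930 had an r above 0.9 with Fos, and the value on mutant replicate 1 enters each of them. For the bright Hspa1a probe the 5 most alike were BC024139, Pnpla2, Tst, Gpr107 and Arhgef1, with r from 0.988 to 0.992, and 433 genes were above 0.9. Without mutant replicate 1 the r of the named genes was 0.945 to 0.973 with Fos and 0.962 to 0.992 with Hspa1a. The named genes were picked for likeness over all 6 arrays, which include these.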

How the data were processed

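Per the labels, an Illumina TotalPrep kit served for RNA amplification with a biotin label. For each array the deposited table gives the non-normalized intensity of every probe and its detection p-value, per the file headers. Scanner software and any scanner background step were not stated in either. A second deposited table holds intensities normalized by the authors, and quantile normalization of the first table gave these within 1.43%.

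Intensities were corrected by normexp with negative controls inferred from the detection p-values (offset 16), set to log2 and quantile normalized over 6 arrays (limma 3.58.1, R 4.3.3). Probes with a detection p under 0.05 on at least 3 arrays were kept, 19735 of 45281. Each probe was tested on its own with limma's lmFit and eBayes, genotype as the only term, and Benjamini-Hochberg adjustment over all kept probes. Differences are log2, with the wild-type mean subtracted from that of the arrays labelled mutant. The labels do not say what a sample was drawn from, so p-values cover only the spread between the 6 samples. Levels are not compared between probes. Annotation gave 1 symbol to 34885 probes, several to 18 and none here to 10378. Older symbols were matched through RefSeq synonyms. The fit was tested on simulated data.

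Members and lists were chosen with earlier results of these data known. Named are all member probes, in each pathway list the 3 genes with the smallest unadjusted p, and the 5 genes most correlated with Fos and with Hspa1a. Alternatives covered background correction, normalization, the authors' values, the filter, 1 probe per gene, the variance model, array weights, a replicate block and arrays left out.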

Additional observations from a re-analysis of the deposited data

How the results depend on the processing

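None of the 9 member probes passed an adjusted p of 0.05 under any of the 13 alternatives of processing, test or pairing (19 with single arrays left out). Of 114 member values under those 13, 109 kept their direction and 5 did not, and of 54 with 1 array left out 47 kept it and 7 did not. With array weights the Fos difference was −0.023, that of the brighter Junb probe −0.28 and that of Dusp4 0.0082. Without both arrays numbered 1 they were −0.037, −0.39 and 0.016, and Hspa1a was at −0.059. With 1 array left out the range was −0.17 to 0.77 for Fos, −0.93 to 0.40 for Fosb, −0.22 to 0.38 for the brighter Junb probe, −0.41 to 0.75 for Hspa1a and −0.54 to 0.20 for Dusp4, with the cause not tested. Unadjusted limma p under 0.05 was reached by 2 member probes without mutant replicate 2, in opposite directions. Egr1 was at 0.79 (p 0.0437) and the dimmer Junb probe at −0.61 (p 0.0196), both with a limma adjusted p of 0.963. The share of all probes in that fit is not given here, so the count carries no weight. The median member difference ran from −0.17 to 0.56 with 1 array left out. Over all probes the count past the threshold was 1 with median scaling (Thap4) and 0 to 1 with 1 array left out (Cops8, without mutant replicate 3), both named after the values were seen. No pathway list gained a probe. Deviations from the group means correlated at 0.325, 0.023 and 0.136 between samples of equal number. Wild-type replicates 1 and 3 were closest to the mutant replicate of the same number, and wild-type replicate 2 to mutant replicate 3 (0.391). With 3 samples per group these correlations do not settle whether the numbers pair the samples. With the replicate block 0 probes passed, and the Ier3 difference of 0.74 had an unadjusted limma p of 0.0166 and an adjusted p of 0.954. That unadjusted p was the smallest of the 114 member values under the 13 alternatives. Probes near background, those of Atf3, Ier2 and 2 of Hspa1a, limit what can be said of these genes.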
